A study of Mus musculus with 18 samples.

Results

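Gene and repeat RNA of Daxx-null mouse embryonic stem cells was compared between 4 days of retinoic acid and the 2i ground state. The 6 libraries were the 3 labelled Daxx-null with retinoic acid and the 3 labelled Daxx-null with 2i, out of 18 libraries in the series, and they were chosen by these labels alone. The other 12 libraries were Daxx-null cells in serum and wild-type cells in the 3 cultures, with 3 libraries in each group. All cells were of E14Tg2a, a male line that grows on gelatin without feeder cells, and both groups compared carried the Daxx deletion. The retinoic acid group came from cells kept in serum medium, to which leukaemia inhibitory factor (LIF) was added at 1000 units/mL. LIF was withdrawn for 24 h, and the cells then spent 4 days in 10 µM retinoic acid in serum medium, which the labels call a neural differentiation. The 2i group grew without serum in N2/B27 medium with inhibitors of GSK3 and MEK, LIF and vitamin C (100 µg/mL). The groups therefore differ in serum, basal medium, LIF, both inhibitors, vitamin C and retinoic acid together, and the shares of these cannot be told apart. The number of Daxx-null clones, and the part of the gene that was deleted, are not given in the sources used here.

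Mouse embryonic stem cells in 2i express the naive pluripotency network, in which Nanog, Pou5f1, Esrrb and their partners sustain each other, and they are known for low DNA methylation. Retinoic acid enters the cell, binds the nuclear receptors Rara, Rarb and Rarg on DNA, and switches on Hox genes, its own degrading enzymes and hindbrain and spinal cord regulators. Daxx is a histone chaperone that deposits the variant H3.3 with Atrx, and it takes part in silencing retroviral repeats. Germline genes and interferon-stimulated genes are silent or low in most differentiated cells. Many germline promoters hold the E-box CACGTG, and many interferon-stimulated promoters hold the interferon-stimulated response element, whose core is a pair of GAAA motifs set apart by 2 bases of any kind.

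The promoters below are shown because the interferon-stimulated and meiotic gene groups were among those with much lower RNA in retinoic acid than in 2i. The sequences are RefSeq promoter windows of build GRCm38.p6, 250 bases before to 50 bases after each start, printed 5′ to 3′ on the gene's strand as stretches of 60 bases. Capitals mark this GAAA pair on either strand, overlapping matches included, in the first 5 genes.
Isg15: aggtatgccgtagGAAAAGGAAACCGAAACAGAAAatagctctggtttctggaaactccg
Oas1a: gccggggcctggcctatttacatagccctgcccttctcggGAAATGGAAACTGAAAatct
Gbp2: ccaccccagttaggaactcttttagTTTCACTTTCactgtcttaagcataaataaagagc
Ifit1: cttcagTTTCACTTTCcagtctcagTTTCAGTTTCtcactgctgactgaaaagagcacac
Cxcl10: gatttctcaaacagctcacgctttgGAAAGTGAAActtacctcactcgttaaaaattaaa
In the next 4 genes, which act in meiosis or the male germ line, capitals mark CACGTG, which reads the same on both strands.
Hormad1: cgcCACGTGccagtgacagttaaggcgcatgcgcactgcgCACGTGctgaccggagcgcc
Stk31: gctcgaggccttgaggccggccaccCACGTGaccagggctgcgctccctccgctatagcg
Sycp3: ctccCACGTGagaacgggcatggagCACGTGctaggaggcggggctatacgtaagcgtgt
Brdt: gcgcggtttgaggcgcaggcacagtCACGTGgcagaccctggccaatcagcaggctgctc

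The stretches of Isg15 (chr4:156200850-156200909), Oas1a (chr5:120907526-120907585) and Cxcl10 (chr5:92349068-92349127) lie on the minus strand. Those of Gbp2 (chr3:142620579-142620638) and Ifit1 (chr19:34640779-34640838) lie on the plus strand. So do those of Hormad1 (chr3:95559617-95559676), Stk31 (chr6:49395459-49395518), Sycp3 (chr10:88459519-88459578) and Brdt (chr5:107331091-107331150). The GAAA pair with its 2 free bases, searched on both strands, was found in the windows of 19 of the 33 interferon-list genes that had one (57.6%), against 3.99% of all 27025 genes in the table. CACGTG was found for 15 of 42 meiotic and piRNA genes (35.7%), against 8.09% of all genes. For the X-linked germ cell genes the share was 2 of 27 (7.41%). A direct repeat of GGTCA with 5 free bases between its copies was in 0.0761% of all windows and in none of those of the retinoid and Hox lists. The copies in the retinoic acid receptor's element are longer, and this pattern does not match their spacing. The search therefore does not show whether that element is present. A match describes letters only, and no match says only that these letters are not in the window.

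Levels are FPKM on the deposited scale, which was inferred to lie about 10 times above the usual one, and changes are log2(FPKM + 0.5) in retinoic acid minus 2i ± SE from limma, with Benjamini-Hochberg adjusted p. A gene was called at an adjusted p under 0.05. Inferred depth was 115.2 to 138.8 M counting units in the retinoic acid and 95.99 to 113.5 M in the 2i libraries (1 M is 1000000). Daxx, on chromosome 17 (mm9, 34046390 to 34052535), was at 62.7, 61.7 and 60.8 FPKM in retinoic acid and 54.4, 56.0 and 57.6 in 2i, a change of 0.14 ± 0.07 (adjusted p = 0.097). In wild-type cells it was at a mean of 248 and 420 FPKM, above every Daxx-null library. Because it is a sum over exons, it does not show which part was deleted.

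Libraries stood apart in 3 ways. RNA of Y-linked genes summed to 2.24 ± 0.694 FPKM in the retinoic acid and 237 ± 27.9 in the 2i group (SD, n = 3 each; exact two-sided permutation p = 0.1, the smallest that 3 against 3 allows). The sum was 3.04 to 3.80 FPKM in Daxx-null serum cells and 162 ± 4.86 in wild-type cells in retinoic acid. The 2 Daxx-null groups kept in serum medium thus held almost no Y RNA, and the 2i libraries held it. The part of this in the other results was not tested. In addition, 2i replicate 2 correlated at r = 0.932 and 0.940 across genes with the other 2i replicates, which correlated at 0.985 with each other. It held 792 genes at least 4-fold above both of them, against 10 to 27 for the other 5 libraries. Finally, among the wild-type 2i libraries used for comparison, replicate 3 held 360 genes at least 4-fold below both others.

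Of 18002 genes tested, 66.3% were called, 4470 higher (24.8%) and 7469 lower (41.5%) in retinoic acid. Without 2i replicate 2, 70% were called, 4936 higher (27.4%) and 7672 lower (42.6%). Of the genes called higher with all libraries, 4260 were also called without that replicate (95.3% of 4470 and 86.3% of 4936), and of those called lower, 7172 (96.0% of 7469 and 93.5% of 7672). The 2 groups of libraries did not overlap for 66.2% of genes. The median gene was at -0.21. The split between higher and lower depended on the scaling. After quantile normalization 6538 genes were higher and 5733 lower, with the median at 0.08. With median-ratio scaling 5758 were higher and 6208 lower, with the median at -0.02. Changes near the median are therefore read against it, and those below are given where they are far from it or with that limit. Counts of list members below are read against the shares over all genes, 24.8% higher and 41.5% lower. Without 2i replicate 2 these shares were 27.4% and 42.6%.

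The number of genes at an FPKM of at least 1 was 15264 to 15291 in the retinoic acid libraries and 16806, 17356 and 16864 in the 2i libraries, so the groups did not overlap (difference -1727, exact permutation p = 0.1). In wild-type cells it was 15719 to 15883 in retinoic acid and 16199, 16259 and 14956 in 2i (exact permutation p = 1), so 2i replicates 1 and 2 lay above every retinoic acid library and replicate 3 below. By at least 2-fold, 2425 genes were called higher and 4548 lower in the Daxx-null comparison. For 2620 of the 4548 (57.6%), Daxx-null serum cells were nearer to the retinoic acid level than to the 2i level. For the 2425 genes that were higher, the serum level was nearer to retinoic acid in 498 (20.5%).

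The 10 genes that rose most included the transcription factors Hand2, Dbx1, Prdm12, Foxc2, Wt1 and Hoxc8. Hand2, a transcription factor of heart, limb and autonomic precursors (chromosome 8, mm9 59799780 to 59803314), was at 255, 332 and 541 FPKM in retinoic acid and 1.11, 1.21 and 0.841 in 2i, a change of 7.86 ± 0.25 (adjusted p = 4.6e-13). Dbx1, which specifies interneurons of the hindbrain and spinal cord, was at 187, 132 and 80.7 against 0.170, 0.093 and 0.101 FPKM (7.67 ± 0.26). A lack of overlap between the groups was a condition of this ranking, so it is not a result. For both Hand2 and Dbx1, 2i replicate 2 was as low as the other 2i libraries. Prdm12 (6.25 ± 0.35), a regulator of sensory neurons and spinal interneurons, the mesenchymal factor Foxc2 (6.74 ± 0.41) and the kidney and gonad regulator Wt1 (6.34 ± 0.68) were also among the 10.

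For others the 2i libraries were not alike. The netrin receptor Unc5a was at 0.601, 4.23 and 0.164 FPKM in 2i (7.04 ± 0.51, and 7.87 without replicate 2), and Fndc3c1 at 0.129, 1.19 and 0.087 (7.14 ± 0.46, and 7.63), with the highest 2i value of both in replicate 2. Dach1, a nuclear cofactor of eye and limb development, was at 246, 259 and 231 FPKM in retinoic acid and at 0.300, 22.1 and 0.296 in 2i, with the highest 2i value in replicate 2. Its change was 6.66 ± 0.89, and 8.27 without that replicate. Hoxc8 was at 1.56, 50.2 and 1.98 FPKM in 2i and 498, 465 and 490 in retinoic acid (6.25 ± 0.79, and 7.74 without it). Hoxb5os, an antisense RNA of the HoxB cluster, behaved alike (7.09 ± 1.16, and 8.92), and without known strand its reads cannot be told apart from those of the genes it overlaps.

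**Figure D1:**
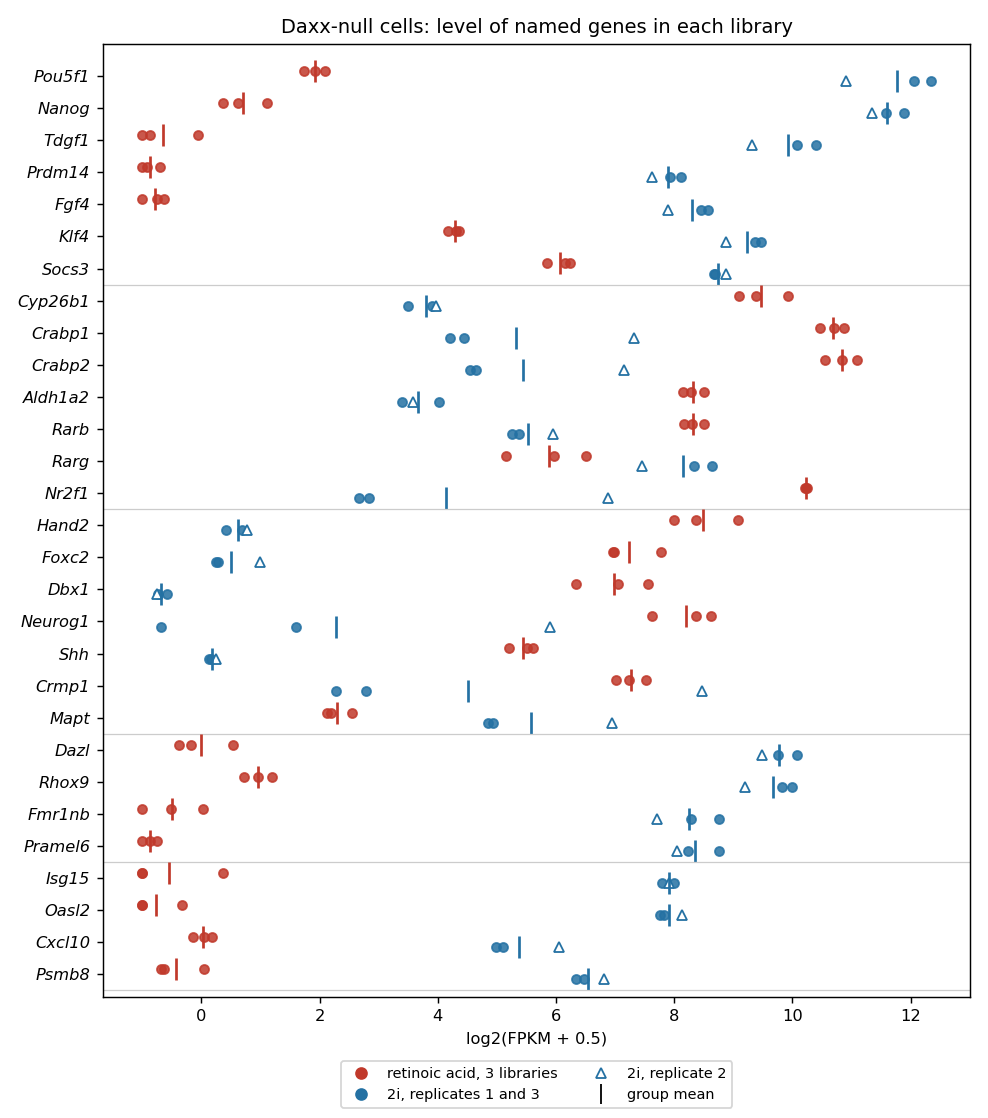
Level of 29 genes, as log2(FPKM + 0.5), in each of the 6 Daxx-null libraries, with red points for retinoic acid, blue points for 2i replicates 1 and 3, open triangles for 2i replicate 2 and vertical ticks for group means. The groups are far apart for Nanog, Dbx1, Dazl and Isg15, whereas the triangle of 2i replicate 2 lies towards the retinoic acid points for Crabp1 and Nr2f1 (117 FPKM against 5.86 and 6.67).

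The 10 genes that fell most included Ly6a, Aqp3, the germ cell gene Dazl and the pluripotency genes Nanog, Tdgf1 and Pou5f1. Ly6a, which codes for the surface protein Sca-1, was at 0.183, 0 and 0.076 FPKM in retinoic acid and at 2117, 882 and 1389 in 2i (-11.21 ± 0.30, adjusted p = 7.4e-14). Aqp3, a water and glycerol channel, was at 0.297, 0.927 and 1.68 against 3935, 2408 and 3167 FPKM (-11.16 ± 0.29). Dazl, an RNA-binding protein of germ cells, was at 0.269, 0.383 and 0.944 against 1084, 712 and 867 FPKM (-9.78 ± 0.29). As in the ranking of increases, a lack of overlap between the groups was a condition of this ranking. For each of these 3 genes 2i replicate 2 was the lowest 2i library. Rpl10l (-10.41 ± 0.24) is a ribosomal protein gene known from the testis, and Tuba3a (-9.53 ± 0.26) belongs to a near-identical pair of tubulin genes whose reads the counting could have split. Arl14epl (-9.82 ± 0.23) and the autophagy receptor Calcoco2 (-9.57 ± 0.34) completed the 10 with Nanog, Tdgf1 and Pou5f1.

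**Figure D2:**
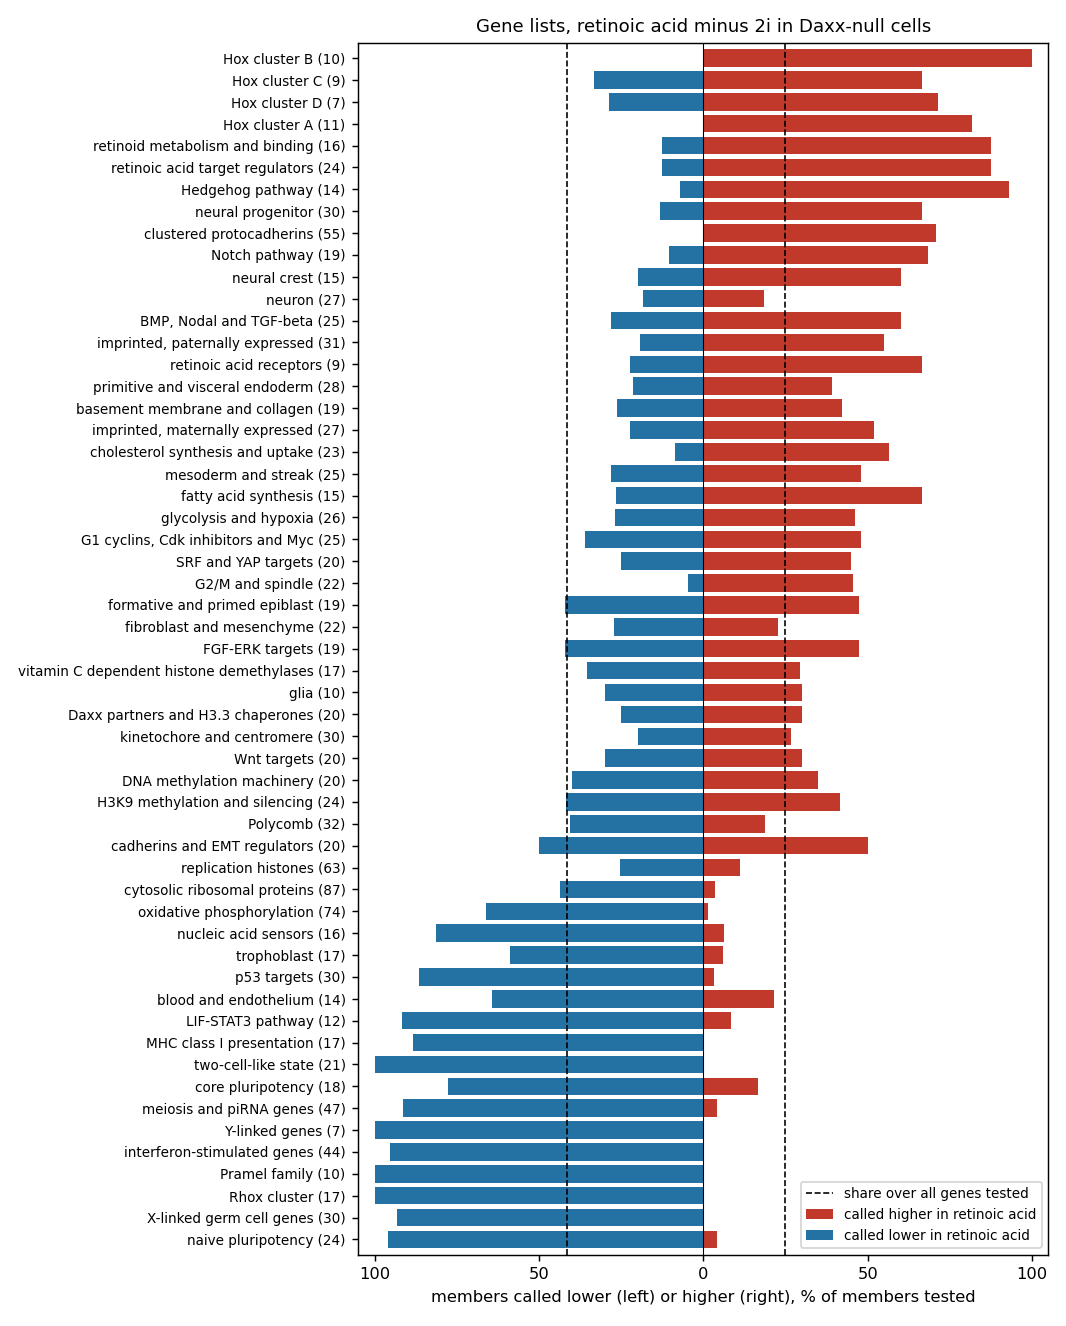
Percentage of the tested members of each gene list (number in brackets) called lower (blue bars, left) and higher (red bars, right) in retinoic acid than in 2i in Daxx-null cells, with dashed lines at the 41.5% and 24.8% of all genes. The naive, two-cell, Rhox, Pramel and interferon lists lie almost wholly on the lower side, and the HoxB, Hedgehog and protocadherin lists on the higher side.

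Pluripotency genes fell in a body, with a few exceptions that rose. Of 18 core genes 14 fell and 3 rose (median -3.90, against -0.21 for all genes). Pou5f1, the core factor also known as Oct4, was at 2.84, 3.3 and 3.75 FPKM in retinoic acid and 5198, 1918 and 4250 in 2i (-9.85 ± 0.44). Sox2, which neural progenitors also express, was at 782, 881 and 512 against 1501, 759 and 1452 FPKM (-0.74 ± 0.21, adjusted p = 0.006), and 2i replicate 2 lay inside the retinoic acid range. The genes that rose were Lin28a, Lin28b and Mycn. Lin28a, a repressor of let-7 microRNAs, was at 608, 650 and 563 FPKM in retinoic acid and 55.0, 51.6 and 59.3 in 2i (3.44 ± 0.21). Lin28b changed by 4.20 ± 0.19 and the proto-oncogene Mycn by 1.31 ± 0.14. Trim71 was not called (-0.50 ± 0.25, adjusted p = 0.086).

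Of 24 naive genes 23 fell (median -7.31). Nanog was at 0.786, 1.04 and 1.67 FPKM in retinoic acid and at 3773, 2594 and 3061 in 2i (-10.90 ± 0.21). Prdm14, a repressor of the switch to the primed state, was at 0, 0.029 and 0.112 against 275, 198 and 244 FPKM (-8.77 ± 0.18). Esrrb (-8.24 ± 0.29), Tfcp2l1 (-8.00 ± 0.17) and Zfp42 (-7.55 ± 0.20) fell by like amounts. None of these 5 overlapped between the groups, which held for 66.2% of all genes and was a condition for ranking Nanog above. In 2i replicate 2 the lowest of the 5 was Prdm14 at 198 FPKM. The exception was Gbx2, which has a role in the hindbrain border as well as in naive cells. It was at 233, 236 and 216 FPKM in retinoic acid and 58.7, 69.1 and 46.6 in 2i (1.98 ± 0.16).

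Most genes of the LIF pathway were lower in retinoic acid, and the part of LIF in this cannot be told apart from the other culture differences. Of 12 LIF and STAT3 genes 11 fell and 1 rose (median -2.13). Socs3, the feedback inhibitor that STAT3 induces, was at 56.9, 70.4 and 74.8 FPKM in retinoic acid and 412, 467 and 405 in 2i (-2.67 ± 0.10). The receptor gene Lifr was the one that rose (0.90 ± 0.14). Formative and primed genes were mixed, with 9 of 19 higher and 8 lower (median 0.17). Fgf5, the standard marker of the formative epiblast, was at 20.6, 17.5 and 17.1 FPKM in retinoic acid and 0, 0.322 and 0.087 in 2i (4.92 ± 0.48). Otx2, a driver of the exit from the naive state and of the anterior brain, went the other way, at 0.702, 0.100 and 0.259 against 26.8, 21.4 and 25.9 FPKM (-4.94 ± 0.29).

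Genes that carry, make and destroy retinoic acid rose. Of 16 tested, 14 were higher and 2 lower (median 2.89). Cyp26a1, which degrades retinoic acid, was at 858, 880 and 1031 FPKM in retinoic acid and 32.6, 124 and 39.9 in 2i (4.07 ± 0.41). Cyp26b1, its paralog, was at 547, 665 and 973 against 10.8, 15.2 and 14.5 FPKM (5.68 ± 0.48, adjusted p = 3.7e-08). The cellular binding proteins Crabp1 (5.35 ± 0.53) and Crabp2 (5.39 ± 0.49) rose to 1414 to 1877 and 1506 to 2191 FPKM. In 2i replicate 2 Crabp1 stood at 160 FPKM and Crabp2 at 141, against 18 to 24.5 in replicates 1 and 3. The synthesizing enzyme Aldh1a2 (4.65 ± 0.27), the retinol transporter Stra6 (3.94 ± 0.54) and the retinal reductase Dhrs3 (2.92 ± 0.24) rose as well. Aldh1a3 (-2.19 ± 0.32) and Rbp2 (-3.23 ± 0.56) were the pair that fell, both below 20 FPKM in every library.

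Among 9 retinoic acid receptors, partners and corepressors 6 rose and 2 fell. Rarb, itself a direct target of the receptors, was at 316, 286 and 362 FPKM in retinoic acid and 41.1, 61.4 and 37.5 in 2i (2.8 ± 0.22). Rara rose by 1.65 ± 0.13, while Rarg, a receptor of the same family, fell from 398, 175 and 321 to 35.2, 61.6 and 90.5 FPKM (-2.27 ± 0.30). The corepressor Ncor1 fell by 0.58 ± 0.12 on the log2 scale. Of 24 regulators known as retinoic acid targets 21 rose and 3 fell (median 2.71). Nr2f1, an orphan nuclear receptor of the developing nervous system, was at 1187, 1195 and 1209.6 FPKM in retinoic acid and 5.86, 117 and 6.67 in 2i (6.10 ± 0.76). Nr2f2 changed by 5.32 ± 0.39, Meis1 by 3.90 ± 0.68 and Meis2 by 2.66 ± 0.25, the last 2 being Hox cofactors.

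Targets of retinoic acid in other settings moved against that direction. Stra8, which drives entry into meiosis, was at 77.7, 75.0 and 104 FPKM in retinoic acid and at 2331, 1593 and 2218 in 2i (-4.57 ± 0.18). Cdx1, a caudal homeobox factor that is also a Wnt target, was at 1.19, 1.91 and 3.10 against 185, 86.0 and 155 FPKM (-5.79 ± 0.37). For both genes the groups were far apart, with 2i replicate 2 the lowest 2i library. Pdlim1 fell too (-0.72 ± 0.20, adjusted p = 0.0047).

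Most genes of all 4 Hox clusters rose, while genes at the 5′ ends of clusters A, C and D did not. In cluster B all 10 tested genes rose (median 5.21), in A 9 of 11 (3.21), in C 6 of 9 (3.68) and in D 5 of 7 (3.25). Hoxb1, the 3′ gene that retinoic acid switches on first in the hindbrain, was at 116, 141 and 171 FPKM in retinoic acid and 3.70, 3.96 and 1.76 in 2i (5.34 ± 0.33). Hoxb8, a gene of the trunk, was at 1140.1, 1063 and 800.4 against 8.67, 441 and 4.89 FPKM (5.15 ± 1.16, and 7.14 without 2i replicate 2). Hoxb13, at the 5′ end, changed by 0.92 ± 0.34 (adjusted p = 0.027). Hoxd4 rose by 5.74 ± 0.79. The pair not called in cluster A was Hoxa11 (0.42 ± 0.41, adjusted p = 0.381) and Hoxa13 (-0.71 ± 0.45, adjusted p = 0.178), both below 1 FPKM in all 6 libraries.

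At the posterior ends of clusters C and D, genes fell. Hoxc12 was at 0, 0 and 0.086 FPKM in retinoic acid and 43.7, 20.7 and 46.9 in 2i (-6.07 ± 0.29), and Hoxc13 was at 4.07, 2.59 and 2.94 against 107, 54.3 and 83.9 (-4.44 ± 0.26). Hoxd13 was at 4.73, 2.30 and 1.25 against 12.1, 9.89 and 11.8 FPKM (-1.99 ± 0.38). Each was lower in all 3 retinoic acid libraries than in any 2i library, and 66.2% of all genes had no overlap in either direction. Hoxc11 was listed at 0 in every retinoic acid library and at 3.48, 0.106 and 4.00 FPKM in 2i. Hoxd11, near the detection limit at 0.684 to 1.34 FPKM in 2i, was called lower as well (-1.16 ± 0.38), but after quantile normalization its value was 0.09.

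**Figure D3:**
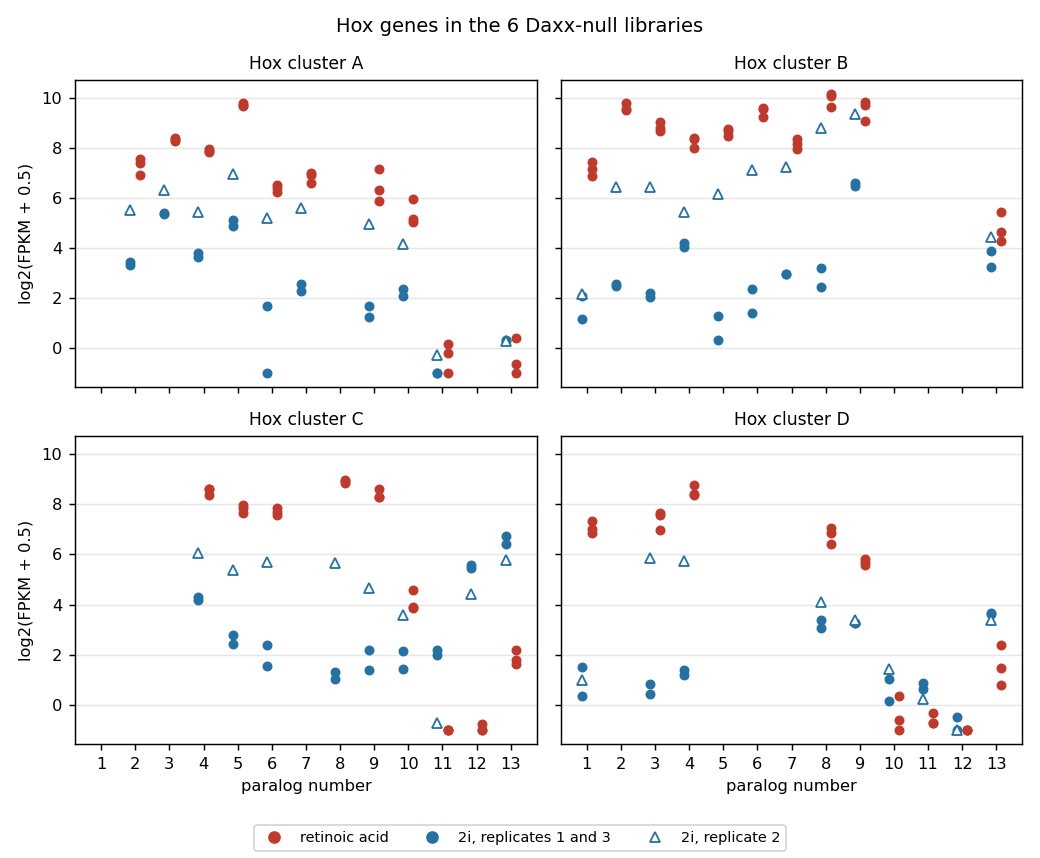
Level of tested Hox genes, as log2(FPKM + 0.5), by paralog number in the 4 clusters, with red points for the 3 retinoic acid libraries, blue points for 2i replicates 1 and 3 and open triangles for 2i replicate 2. Red points lie above blue ones for anterior and trunk genes, below them for Hoxc12, Hoxc13 and Hoxd13, and the triangle of Hoxb8 (441 FPKM) lies near the red points.

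Most progenitor genes of the nervous system rose. Of 30 neural progenitor genes 20 rose and 4 fell (median 1.50), and 24 rose without 2i replicate 2 (median 2.12). Pax6, a regulator of neural progenitors, was at 248, 235 and 173 FPKM in retinoic acid and 17.2, 33.0 and 21.8 in 2i (3.20 ± 0.25). Sox1 was at 202, 156 and 75.8 against 3.54, 42.9 and 4.65 FPKM (3.80 ± 0.64). Neurog2 (5.00 ± 0.89) and Pax3 (4.93 ± 0.88), which set neuronal and dorsal fates, rose from under 3 FPKM in 2i replicates 1 and 3. In 2i replicate 2 both genes stood higher, at 23 and 31.3 FPKM, still below every retinoic acid library.

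Neuron genes depended on that library. Of 27 tested 5 rose and 5 fell (median 1.06), whereas without 2i replicate 2 there were 18 that rose and 5 that fell (median 2.09). Dcx, a microtubule protein of young neurons, was at 30.0, 22.9 and 11.5 FPKM in retinoic acid and 0.590, 177 and 0.593 in 2i, so it was not called (1.78 ± 1.38, adjusted p = 0.27) and was called without replicate 2 (4.23). Map2 was at 110.2, 97.8 and 63.4 against 6.76, 192 and 8.57 FPKM, and Tubb3 at 543, 515 and 320 against 213, 1204 and 164. For all 3 genes 2i replicate 2 was above every retinoic acid library and the other 2i libraries were below them. The summed FPKM of the 29 neuron genes matched, of which 27 were tested, was 1690 to 2376 in retinoic acid. In 2i it was 1421, 5454 and 1128. Summed neural progenitor genes were at 555, 1664 and 556 FPKM in 2i, and fibroblast genes at 810, 3011 and 748.

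Those that fell among neuron genes were Mapt, Stmn2, Stmn3, Nefl and Gad2. Mapt, the tau protein, was at 5.34, 3.89 and 4.09 FPKM in retinoic acid and 30.2, 123 and 28.2 in 2i (-3.28 ± 0.40, and -2.60 without replicate 2). Stmn2 was also higher in Daxx-null serum cells, at a mean of 981 FPKM, than in retinoic acid at 54.3 to 68.8. Isl1 (2.55 ± 0.32), a transcription factor of motor neurons, rose with all 2i libraries included. Glial genes were split, with 3 of 10 higher and 3 lower. As the samples are bulk RNA, fewer cells of a type and less RNA per cell cannot be told apart.

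Signalling genes of the neural tube rose together. Of 14 Hedgehog pathway genes 13 rose. Shh, the ligand, was at 36.3, 45.2 and 48.5 FPKM in retinoic acid and 0.596, 0.689 and 0.626 in 2i (5.26 ± 0.27). Its receptor and target Ptch1 changed by 1.91 ± 0.12 and the effector and target Gli1 by 3.01 ± 0.22. Dhh, a further ligand, fell (-1.50 ± 0.32) and stayed below 3 FPKM in every library. Of 19 Notch genes 13 rose and 2 fell, the latter being Hes1 and Rbpj. The ligand Dll1 was at 132, 115 and 47.0 against 2.04, 25.7 and 1.71 FPKM (4.09 ± 0.73), and the target Hes5 was at 242, 236 and 113 against 0.139, 30.8 and 0.329 (6.19 ± 1.00). Hes1 fell by 0.39 ± 0.15 on the log2 scale (adjusted p = 0.029), a size near the scaling shift.

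Among 20 cadherin genes and regulators of the epithelial to mesenchymal transition 10 rose and 10 fell (median -0.18). Cdh1, the epithelial cadherin, was at 61.1, 64.3 and 81.7 FPKM in retinoic acid and 1306, 1215 and 1434 in 2i (-4.25 ± 0.19). Cdh2, the neural and mesenchymal cadherin, was at 462, 383 and 299 against 5.24, 96.0 and 7.49 (4.52 ± 0.76). The clustered protocadherins, which give neurons their surface identity, rose in 39 of 55 and fell in none (median 1.43). Without 2i replicate 2 all 55 were called higher, as were 54 of 55 in wild-type cells, where 34% of all genes were called higher. Their variable exons share constant exons within a cluster, so the counting could have split reads between them.

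Genes of the germ layers outside the nervous system were mixed. Of 28 endoderm genes 11 rose and 6 fell (median 0.67), with 15 higher without 2i replicate 2, and of 25 mesoderm genes 12 rose and 7 fell. Gata4 was at 42.1, 36.2 and 48.1 FPKM in retinoic acid and 7.67, 47.1 and 9.75 in 2i (1.42 ± 0.49), with 2i replicate 2 inside the retinoic acid range. Sox17 was not called (-0.04 ± 0.52). Afp, the fetal albumin of yolk sac endoderm, fell from 11.3, 2.24 and 6.6 to 1.22, 1.00 and 0.801 FPKM (-2.03 ± 0.43). Trophoblast genes fell in 10 of 17 and rose in 1 (median -1.12). Tfap2c, a factor of trophoblast and germ cells, was at 18, 22.3 and 11 against 391, 275 and 369 FPKM (-4.34 ± 0.21). Summed blood and endothelial genes were at 141 to 269 FPKM in retinoic acid and 538 to 712 in 2i, with 9 of 14 lower and 3 higher.

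Genes that the germ line and the early embryo use were lower in retinoic acid almost without exception. Of 47 meiotic and piRNA genes 43 fell and 2 rose (median -3.96). Sycp3, of the synaptonemal complex, was at 5.62, 5.93 and 3.70 FPKM in retinoic acid and 176, 106 and 115 in 2i (-4.56 ± 0.21). Stk31 was at 2.89, 2.46 and 3.21 against 162, 109 and 153 FPKM (-5.39 ± 0.23), and Brdt, a testis bromodomain protein, at 1.10, 0.141 and 0.319 against 65.3, 106 and 98.5 (-6.55 ± 0.31). Hormad1 was listed at 0 in all 3 retinoic acid libraries and at 61.3, 42.9 and 37.5 FPKM in 2i. These are 4 of the genes whose E-box promoters are printed above. None of the 4 overlapped between the groups, which held for 66.2% of all genes. The 2 genes that rose, Tdrd1 (0.97 ± 0.24) and Tdrkh (1.33 ± 0.32), code for Tudor proteins of the piRNA pathway. The window of Tdrd1 also holds CACGTG, whereas those of Tdrkh and of Dazl and Stra8, which fell, do not. A link between the E-box and the change was not tested.

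X-linked families went the same way. Of 30 X-linked germ cell genes 28 fell (median -5.99), and Pnma3 (-0.25 ± 0.42) and Tex16 (-0.45 ± 0.34) were not called. Fmr1nb was at 0, 0.523 and 0.204 FPKM in retinoic acid and 431, 208 and 311 in 2i (-8.74 ± 0.36). All 17 Rhox homeobox genes fell (median -5.78). Rhox9, on the X chromosome (mm9 35252274 to 35254947), was at 1.78, 1.44 and 1.15 FPKM in retinoic acid and 1013, 585 and 910.4 in 2i (-8.71 ± 0.50). Rhox6 fell by 7.52 ± 0.47 on the log2 scale. Members of these families are near-identical, so the counting may have split reads between them and single members are uncertain.

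All 10 Pramel genes fell (median -5.10), and so did all 21 genes of the two-cell-like state (median -3.27). Dppa3, a maternal factor of naive and germ cells, was at 0, 0 and 0.177 FPKM in retinoic acid and 449, 316 and 280.2 in 2i (-9.27 ± 0.37). Zscan4d, a member of the cluster that marks two-cell-like cells, was at 2.67, 3.13 and 2.94 against 27.1, 46.0 and 26.9 FPKM (-3.27 ± 0.50). The summed FPKM of the two-cell list was 14.47 to 19.24 in retinoic acid and 681 to 857 in 2i. The Zscan4 and Pramel copies are too alike for their single values to be certain.

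Imprinted genes moved in both directions. Of 27 maternally expressed genes 14 rose and 6 fell, and of 31 paternally expressed genes 17 rose and 6 fell. Meg3, a maternal noncoding RNA, was at 1196, 1496 and 1497 FPKM in retinoic acid and 64.3, 414 and 67.5 in 2i (3.51 ± 0.49). Igf2, the paternal growth factor, was at 5285, 6595 and 9968 against 515, 2304 and 584 FPKM (2.99 ± 0.81). Its neighbour H19, the maternal noncoding RNA of the same domain, moved the other way, at 14.9, 43.4 and 38.4 against 165, 298 and 197 FPKM (-2.85 ± 0.92, adjusted p = 0.012).

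Interferon-stimulated genes were expressed in Daxx-null 2i cells and were lower after retinoic acid. Of 44 tested, 42 fell and none rose, with and without 2i replicate 2 (median -4.58, and -4.33 without it). Isg15, a ubiquitin-like protein, was at 0, 0.787 and 0 FPKM in retinoic acid and at 255, 241 and 222 in 2i (-8.45 ± 0.97, adjusted p = 1.2e-06). Gbp2, a guanylate-binding protein, was at 2.52, 1.67 and 1.92 against 128, 229 and 163 FPKM (-6.08 ± 0.79), and Ifit1, which binds foreign RNA, at 0.132, 0 and 0.109 against 22.8, 71.6 and 34.0 (-6.07 ± 0.70). The groups did not overlap for any of the 3, as for 66.2% of all genes. The summed FPKM of the list was 330 to 371 in retinoic acid and 4442, 5475 and 4529 in 2i.

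The chemokine Cxcl10 was at 0.635, 0.406 and 0.527 FPKM in retinoic acid and 31.1, 65.5 and 33.8 in 2i (-5.35 ± 0.59). Oas1a, a sensor enzyme of double-stranded RNA with a close paralog, changed by -7.32 ± 0.25. Transcription factors that drive these genes fell as well, Irf7 by 5.03 ± 0.57, Irf1 by 2.79 ± 0.14, Irf9 by 1.76 ± 0.17 and Stat2 by 1.46 ± 0.18 on the log2 scale. The receptor gene Ifnar1 went the other way, at 119, 114 and 116 FPKM in retinoic acid and 82.2, 105 and 90.5 in 2i (0.34 ± 0.09, adjusted p = 0.0049). Ifit2 (-0.90 ± 0.42) and Irf2 (0.31 ± 0.31) were not called.

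Antigen presentation and nucleic acid sensing followed. Of 17 MHC class I pathway genes 15 fell (median -2.25), and H2-Q4 and Calr were not called. H2-D1, a classical class I heavy chain, was at 106, 119 and 93.4 FPKM in retinoic acid and 633, 989 and 656 in 2i (-2.81 ± 0.20), and B2m, the shared light chain, was at 331, 283 and 327 against 807, 1444 and 688 (-1.57 ± 0.23). Psmb8, an immunoproteasome subunit, was at 0.143, 0.122 and 0.534 against 80.8, 111 and 88.1 FPKM (-6.96 ± 0.75). Of 16 sensors and adaptors 13 fell and 1 rose. Ifih1 (-5.12 ± 0.57) and Ddx58 (-4.21 ± 0.30), the helicases that sense viral double-stranded RNA, fell, and Samhd1, a nucleotide hydrolase, rose (0.77 ± 0.12).

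Of 30 p53 targets 26 fell and 1 rose (median -1.33). Cdkn1a, the inhibitor of cyclin-dependent kinases, was at 177, 188 and 316 FPKM in retinoic acid and 1962, 1278 and 1758 in 2i (-2.90 ± 0.24). Mdm2, the ubiquitin ligase of p53, fell by 1.80 ± 0.17 and Ccng1 by 1.28 ± 0.24 on the log2 scale. The gene that rose was the kinase Plk3 (1.33 ± 0.27).

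Chromatin and DNA methylation genes showed single large changes within mixed lists. Over all genes 24.8% rose and 41.5% fell, and the lower members of the lists in this paragraph were near that share. Of 20 DNA methylation genes 7 rose and 8 fell. Dnmt3l, a cofactor of de novo methylation, was at 1.74, 3.19 and 1.75 FPKM in retinoic acid and 140.4, 39.5 and 95.6 in 2i (-4.94 ± 0.50). The hydroxylases Tet1 (-2.51 ± 0.14) and Tet2 (-1.79 ± 0.14) fell. Their paralog Tet3 rose, at 124, 123 and 97.8 FPKM in retinoic acid and 9.62, 39.6 and 14.1 in 2i (2.66 ± 0.37). Dnmt3a rose from 62.2, 96.0 and 76.7 to 146, 162 and 161 FPKM (1.01 ± 0.13). Of 32 Polycomb genes 6 rose and 13 fell, and Cbx2, which reads H3K27 methylation, rose by 2.60 ± 0.15. Of 24 genes of H3K9 methylation and silencing 10 rose and 10 fell, and Zfp809, a zinc finger repressor of retroviruses, was at 47.4, 40.8 and 36.3 FPKM in retinoic acid and 258, 323 and 367 in 2i (-2.91 ± 0.12).

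Among 20 Daxx partners and H3.3 chaperones 6 rose and 5 fell, and Atrx was not called (0.02 ± 0.16). Genes of PML nuclear bodies, where Daxx resides, fell. Pml, their scaffold, was at 89.2, 89.3 and 85.2 FPKM in retinoic acid and 250.3, 217 and 277 in 2i (-1.49 ± 0.08), and Morc3 was at 100.4, 102 and 102 against 305, 263 and 316 (-1.53 ± 0.08). Sp100, a further body component, was listed at 0 in all 3 retinoic acid libraries and at 23.8, 29.9 and 20 FPKM in 2i. Pml and Sp100 are also known as interferon-stimulated genes.

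Metabolic and growth genes had medians nearer to that of all genes, of which 24.8% rose and 41.5% fell. The share of ribosomal protein genes that fell was near the latter. Of 23 cholesterol synthesis genes 13 rose and 2 fell (median 0.48), the latter being Fdft1 and Ebp. Of 74 genes of oxidative phosphorylation 49 fell and 1 rose (median -0.53), and after quantile normalization 33 fell and 5 rose. Of 87 ribosomal protein genes 38 fell and 3 rose (median -0.35), and with median-ratio scaling 14 fell and 6 rose, whereas 52 fell without 2i replicate 2. Genes of G2 and mitosis rose in 10 of 22 and fell in 1 (median 0.19), and in 9 and 3 without 2i replicate 2. Replication-dependent histones, which largely lack poly(A) tails, fell in 16 of 63 and rose in 7, and after quantile normalization 8 fell and 19 rose, so their direction depends on the scaling.

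For repeats the deposited values are shares of a separate repeat read set, so the total amount of repeat RNA matters. On the inferred scale that set was 7.18 ± 0.223% of the gene read set in retinoic acid and 16.3 ± 2.78% in 2i (SD, n = 3 each; exact permutation p = 0.1). The 2i values were 16.7, 13.4 and 18.9%, all above the retinoic acid libraries. On the deposited scale 71.9% of 864 subfamilies were called, 470 higher (54.4%) and 151 lower (17.5%), with a median of 0.46. Rescaled to the gene read set, 67.6% were called, of which 56 were higher (6.48%) and 528 lower (61.1%), with a median of -0.48. Without 2i replicate 2 the deposited scale gave 494 and 147 and the rescaled one 63 and 532. Only subfamilies with the same call on both scales have a direction that does not rest on this choice.

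**Figure D4:**
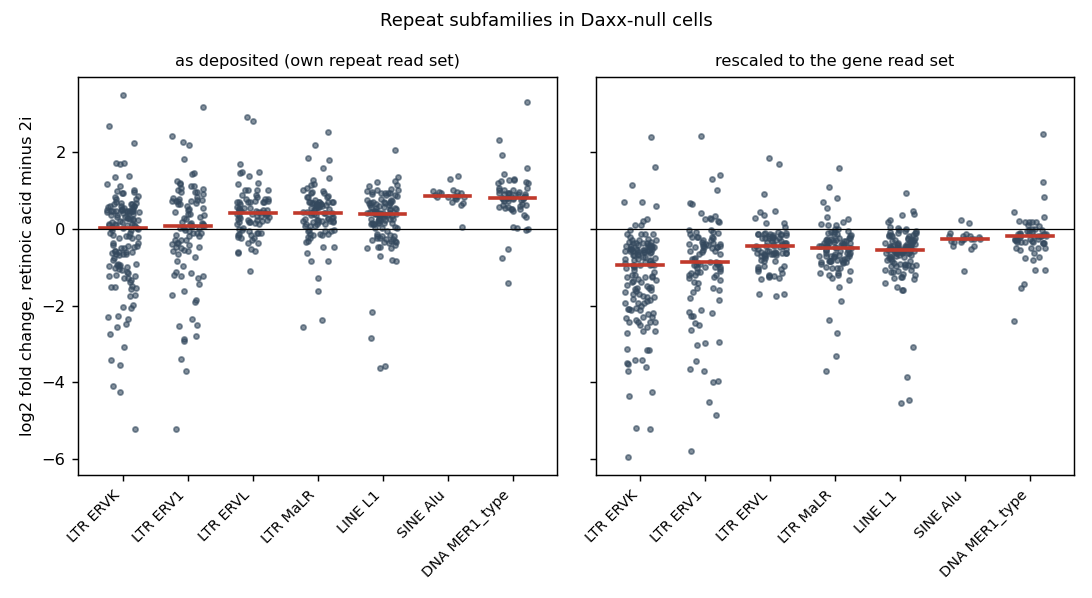
Log2 fold change of each tested subfamily, retinoic acid minus 2i in Daxx-null cells, in 7 repeat families, on the deposited scale (left) and rescaled to the gene read set (right), with 1 point per subfamily and red bars at the family medians. Medians lie at or above 0 on the left (0.02 for ERVK, 0.87 for the Alu family, which holds B1) and below 0 on the right (-0.94 and -0.26), while the lowest ERVK and L1 points lie far below 0 in both.

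Retroviral elements that Daxx and its partners are known to help silence were lower in retinoic acid on both scales. Of 16 IAP subfamilies 14 fell (median -1.45), and 15 after rescaling (-2.36). IAPEy-int, internal sequence of an IAP element, was at 0.255, 0.208 and 0.199 FPKM in retinoic acid and 25.1, 33.1 and 24.5 in 2i (-5.22 ± 0.12, and -5.96 rescaled). IAPEz-int was at 27.6, 27.8 and 29.4 against 106, 118 and 116 FPKM. All 9 MMERVK10C and RLTR10 subfamilies fell (median -1.27), as did all 5 of ETn and MusD (-0.80), on both scales. The groups did not overlap for IAPEy-int or IAPEz-int. IAPEy-int fell alike in wild-type cells (-5.16, limma difference -0.06 ± 0.16, adjusted p = 0.81). Of the 16 IAP subfamilies, 11 had a lower change in Daxx-null than in wild-type cells. The part of Daxx in these falls was not tested.

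Young L1 elements fell in 11 of 13 subfamilies (median -0.41), and in all 13 after rescaling. L1Md_A was at 1.52, 1.24 and 1.11 FPKM in retinoic acid and 19.3, 17.9 and 26.8 in 2i (-3.57 ± 0.19), and L1Md_Gf (-3.63) and L1Md_T (-2.83) fell by like amounts. The ERV1 element RLTR1B-int (-3.71) and the ERVK elements RLTR45-int (-4.09) and RLTR13B2 (-4.26) were also among the largest decreases. In wild-type cells these elements changed by -3.92, -5.09 and -4.42 in that order. L1Md_A changed there by -3.11 (limma difference -0.46 ± 0.27, adjusted p = 0.25). Of the 13 young L1 subfamilies, 7 had a lower change in Daxx-null than in wild-type cells. MERVL and MT2 elements, which accompany the two-cell-like state, had 3 of 7 higher and 1 lower on the deposited scale, and all 7 lower after rescaling. MT2_Mm was at 7.09, 6.90 and 6.64 against 9.84, 13.3 and 9.48 FPKM (-0.61).

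Fewer subfamilies rose on both scales. RNERVK23-int was at 45.5, 44.0 and 42.0 FPKM in retinoic acid and 2.90, 4.33 and 3.11 in 2i (3.50 ± 0.11, and 2.40 rescaled). Kanga2_a (3.17, and 2.06 rescaled) and HERVL40-int (2.93, and 1.85) rose alike. SINE B1 and B2 subfamilies were higher in 13 of 15 cases on the deposited scale (median 0.82) and lower in all 15 after rescaling (-0.29). MaLR elements had 59 of 94 higher and 11 lower, and 6 and 67 after rescaling.

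The change was next set against the same change in wild-type cells, whose libraries are separate, with the test of the difference. Of 18002 genes 34.6% differed, 1665 (9.25%) with a higher and 4568 (25.4%) with a lower value of retinoic acid minus 2i in Daxx-null cells. The median difference was -0.27. The split depends on the scaling, since quantile normalization gave 2786 and 2610 and removal of chromosome medians 3286 and 2811. Without Daxx-null 2i replicate 2 there were 1814 and 4574, and without wild-type 2i replicate 3 there were 1562 and 3958. Median differences ran from -0.67 on chromosome 14, -0.65 on chromosome 1 and -0.60 on chromosome X to 0.02 on chromosome 19. The part of these chromosome-wide shifts in the results on single genes was not tested.

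Among gene groups, the interferon list had 41 of 44 members with a more negative change in Daxx-null cells and none with a more positive one (median difference -3.15). In wild-type cells 27 of 44 fell and 2 rose (median -1.23), where 70.1% of all genes were called and 36.1% fell. Gbp2 changed by -6.08 in Daxx-null and -1.24 in wild-type cells (difference -4.83 ± 1.12, adjusted p = 0.004), and its mean in wild-type 2i cells was 13.9 FPKM. MHC class I genes differed in 15 of 17, all more negative (median -3.24). They rose in 5 and fell in 2 in wild-type cells, where B2m rose by 1.48 against a fall of 1.57 in Daxx-null cells on the log2 scale (difference -3.04 ± 0.33).

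All 21 genes of the two-cell-like state differed in the same direction (median -3.81), and 14 did after quantile normalization. Zscan4d was at a mean of 24.5 FPKM in wild-type cells in retinoic acid and 12 in wild-type 2i (difference -4.40 ± 0.71). Of 17 Rhox genes 13 differed (7 after quantile normalization), all more negative, and 16 of 17 also fell in wild-type cells (median -2.53). Rhox9 was at 61.7 FPKM in wild-type 2i and 8.12 in wild-type retinoic acid. Meiotic and piRNA genes fell in wild-type cells as well, in 38 of 47 (median -2.40), and 33 differed with a more negative change in Daxx-null cells and 1 with a more positive one. After quantile normalization these counts were 23 and 3. Hormad1 and Prdm14 showed no called difference.

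Endoderm genes rose in 25 of 28 cases in wild-type cells (median 2.98), and 24 of 28 differed, all with a lower change in Daxx-null cells (median difference -2.68). After quantile normalization 18 differed (-1.85), and without wild-type 2i replicate 3 it was 20 (-2.16), again all lower. Gata6, a founder of primitive endoderm, rose by 2.61 in wild-type and 0.66 in Daxx-null cells (difference -1.94 ± 0.30, adjusted p = 0.00024). Daxx-null 2i cells held 101, 76.0 and 85.6 FPKM of Gata6, against a wild-type 2i mean of 34.7. Trophoblast genes differed in 10 of 17, all lower, and Krt8, a simple keratin, was at a mean of 33.4 FPKM in wild-type 2i and at 168 to 235 in Daxx-null 2i cells. For p53 targets 20 of 30 differed with a lower and 2 with a higher change. Cholesterol synthesis genes (13 of 23) and genes of G2 and mitosis (16 of 22) differed with a higher change in Daxx-null cells, and none of either list with a lower one.

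**Figure D5:**
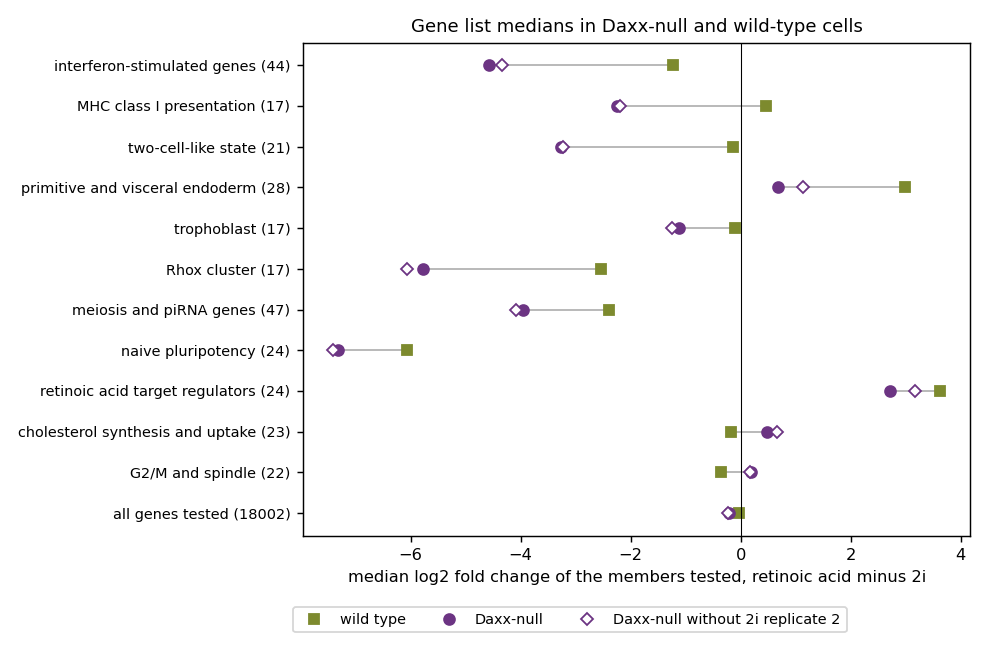
Median log2 fold change, retinoic acid minus 2i, of the tested members of 11 gene lists (number in brackets) and of all genes, in wild-type cells (squares), Daxx-null cells (circles) and Daxx-null cells without 2i replicate 2 (open diamonds). The interferon (-4.58 against -1.23), two-cell (-3.27 against -0.14) and endoderm lists (0.67 against 2.98) lie apart between genotypes, and without 2i replicate 2 the first stands at -4.33, the second at -3.22 and the endoderm list at 1.13 in Daxx-null cells.

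Of repeats, 21.8% of subfamilies differed between genotypes on the deposited scale, 19 higher (2.2%) and 169 lower (19.6%), and 11 and 307 after rescaling. MMERVK10C and RLTR10 differed in 7 of 9 and IAP in 11 of 16, all with a lower change in Daxx-null cells. ETn and MusD differed the other way in 4 of 5, as they fell more in wild-type cells (median -1.89 against -0.80). All 5 fell in wild-type cells, where 76.4% of subfamilies were called and 9.61% were lower. Quantile normalization gave 55 higher and 35 lower over all subfamilies, so the overall direction of this difference depends on the scaling.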

How the data were processed

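RNA of 18 libraries in 6 groups was analysed, grouped by the labels for genotype and culture, and 6 libraries carry the comparison. Per the labels' protocols, polyadenylated RNA was enriched with oligo-dT and ribosomal RNA was removed, whereas the series design names ribosomal RNA depletion of total RNA. The build was mm9, and the tools were Bowtie2 2.2.6, HOMER 4.8 and limma without a version, per the submitters' processing notes. Strand was not stated. The authors deposited FPKM per gene (24505 entries) and per repeat subfamily (906), and a table of normalised log2 values, used as an alternative. The FPKM scale is not stated. A total of 10 M (1 M is 1000000) was inferred, and it leaves 57.97 to 60.69% in gene exons. Depth (95.99 to 138.8 M units in the 6 libraries) was recovered from the steps of low values. Precision is limited by 3 replicates, and p-values measure the spread between these libraries.

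The 18002 genes that reached an FPKM of 1 in 3 or more libraries were tested on log2(FPKM + 0.5), and repeats above 0 in at least 9 libraries (864) on log2(FPKM + 0.526), with limma 3.58.1 in R 4.3.3, all 18 libraries, 6 group means and a variance trend. This scale understates changes of low genes. Calls are at a Benjamini-Hochberg adjusted p under 0.05. On simulated data of this comparison (18002 genes), 59% of 100 genes changed by 1 and 91% of 100 changed by 2 on the log2 scale were recovered, and 0.0449% of unchanged genes were called. No other genes were changed there, whereas 66.3% were called in the data. The simulation also gave all groups the same spread per gene and held no outlying library. Its shares therefore do not give the error rates of the calls in the data. Members, lists (55, with 1389 of 1404 members matched) and tests were chosen with earlier results of these data known. Named genes were the 10 largest increases and 10 largest decreases at a mean FPKM of at least 20 without overlap of groups, up to 4 called members per list at a mean FPKM of at least 5, all members of lists of 12 or fewer, the 6 largest differences between genotypes in each direction at a mean FPKM of at least 20, 3 subfamilies per repeat list, the 5 largest in each direction, Daxx and the Y-linked genes. Other genes were named after their values were seen, as were the promoters printed. Promoter windows are RefSeq sequences of GRCm38.p6, and other coordinates are mm9. Replicate numbers did not pair the libraries. Alternatives were other scalings, pseudocounts and filters, the replicate block, removal of chromosome medians and leaving out libraries. A few genes are not reported here.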

Additional observations from a re-analysis of the deposited data

Results flagged for a closer look

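The change from 2i to retinoic acid differed between genotypes by the test of the difference (limma, adjusted p under 0.05) for 1665 genes with a higher and 4568 with a lower value in Daxx-null cells. Of repeat subfamilies 19 differed with a higher and 169 with a lower value.

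Single genes with the largest differences were led by H19, at -8.33 on the log2 scale. H19 was at a mean of 6810.3 FPKM in wild-type cells in retinoic acid, and at 14.9, 43.4 and 38.4 in Daxx-null cells, while its neighbour Igf2 rose in both genotypes. The Y-linked Eif2s3y, a translation factor subunit, followed at -6.26. Cxcl10 was at -6.23, Rhox9 at -6.18, Psmb8 at -5.99 and Fmr1nb at -5.82. Each of these 4 was lower in retinoic acid in Daxx-null cells, and Cxcl10 was at a mean of 1.69 FPKM in wild-type 2i.

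In the other direction stood Nkx1-2 (3.98), a homeobox gene of caudal progenitors, at 0.510, 1.42 and 1.65 FPKM in Daxx-null 2i and a mean of 23.3 in wild-type 2i. Apol6 (3.72), Fam19a4 (3.35), Nphs1 (3.31) and Nphs1os (3.24) shared this pattern, with lower means in Daxx-null than in wild-type 2i. Nphs1, the slit diaphragm protein nephrin, and Nphs1os lie at one locus on opposite strands, so without known strand they count as 1 observation.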

How the results depend on the processing

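Of 313 genes and repeats named, 285 kept direction and call under every alternative. Among counts and library values 139 alternatives stayed within 1.5 times and 26 moved, and among counts and medians of gene lists 3159 stayed and 402 moved. For the difference between genotypes in genes, against 1665 higher and 4568 lower, removal of chromosome medians gave 3286 and 2811, the authors' deposited log2 values 2771 and 2652, quantile normalization 2786 and 2610 (3156 and 2974 without Daxx-null 2i replicate 2, added after seeing the data) and median-ratio scaling 2755 higher. The cause was not tested.

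For repeats in Daxx-null cells, rescaling turned 470 higher and 151 lower into 56 and 528, and 63 and 532 without 2i replicate 2 (added after seeing the data), because it multiplies every value of a library by its repeat share. For the difference between genotypes of repeats (19 and 169), rescaling gave 11 and 307 (391 lower without 2i replicate 2), quantile normalization 55 and 35, and only the 4 groups compared 11 and 95. Leaving out 1 library gave 11 to 29 higher and 102 to 187 lower. The extremes were 11 and 102 without Daxx-null retinoic acid replicate 3, 11 and 107 without wild-type retinoic acid replicate 2, and 29 higher without Daxx-null 2i replicate 2, as also without both this and wild-type 2i replicate 3.

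Rescaling reversed MT2A (-0.32, and -0.37 without 2i replicate 2), MT2B (-0.40 and -0.46), B1_Mur1 (-0.17 and -0.20), B1F2 (-0.19 and -0.22), B1F (-0.20 and -0.22), ID4_ (-0.14 and -0.17), ID (-0.22 and -0.27) and ID4 (-0.25 and -0.28). Quantile normalization reversed Hoxd11 (0.09) and SYNREP_MM (0.09). Removing chromosome medians, which for Y subtracts their own change, reversed Uty (0.00), Kdm5d (0.57), Usp9y (0.89), Zfy1 (0.58) and Zfy2 (1.53).

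Replicate numbers are shared by the groups, but libraries with the same number did not deviate together (r across genes of -0.187, 0.0246 and 0.0961). With a replicate block 4516 genes were higher and 7486 lower, 479 and 150 repeats, and for the difference between genotypes 1704 and 4598 genes and 18 and 159 repeats. Depth limits genes below about 1 FPKM, and those listed at 0 have no fold change.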

Other observations

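Signalling genes outside the lists described above showed large changes in single members within mixed lists. Of 19 FGF and ERK targets 9 rose and 8 fell in the group without the MEK inhibitor. The phosphatase Dusp6, an ERK feedback target, was at 155, 126 and 133 FPKM in retinoic acid and 16.9, 38.4 and 14.9 in 2i (2.66 ± 0.25), whereas the ETS factor Etv5 fell from 699.9, 421 and 615 to 21.0, 24.0 and 27.2 FPKM (-4.54 ± 0.14). Myc rose to 238 to 348 FPKM from 29.2 to 39.7 (2.98 ± 0.33). Of 25 BMP, Nodal and TGF-beta genes 15 rose and 7 fell. Nodal was at 2.16, 1.95 and 3.31 against 287, 127 and 239 FPKM (-6.15 ± 0.25) and its inhibitor Lefty2 fell by 4.91 ± 0.29 on the log2 scale, while the BMP targets Id2 (3.85 ± 0.56) and Msx1 (4.45 ± 0.64) rose. Of 20 Wnt targets 6 rose and 6 fell, and after quantile normalization 10 rose and 5 fell. The receptor Lgr5 was at 98.3, 72.3 and 47.3 FPKM in retinoic acid and 0.958, 9.63 and 2.00 in 2i (4.40 ± 0.53).

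Of 15 neural crest genes 9 rose and 3 fell. Ednrb, the endothelin receptor of crest cells, was at 202, 146 and 88.5 FPKM in retinoic acid and 0.595, 16.3 and 0.548 in 2i (5.69 ± 0.76), and Foxd3, which naive cells also use, fell from 164, 91.0 and 142 to 5.90, 2.65 and 2.34 (-5.06 ± 0.34). Ccnd2, a G1 cyclin, was at 1195, 1212 and 915 against 12.2, 92.6 and 17.9 FPKM (5.30 ± 0.78). Glucose handling was mixed, with 12 of 26 glycolysis and hypoxia genes higher and 7 lower. The lactate exporter Slc16a3 rose (3.64 ± 0.67) and the glucose transporter Slc2a3 fell (-2.40 ± 0.34). Of 15 fatty acid synthesis genes 10 rose and 4 fell, and the desaturase Scd2 was at 4087, 4369 and 4491 FPKM in retinoic acid and 559, 2366 and 774 in 2i (2.10 ± 0.35).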
